A study of Bos taurus with 20 samples.

Results

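The 8 genes described here are the melanocyte pigment genes PMEL, MLANA, TYR, TYRP1, DCT, MC1R, MITF and GPNMB, measured in skin of cattle with and without horns. They were taken by gene name or description from the non-control probes of an Agilent 2-colour array, which held 21475 probes for 19723 gene names. Each of the 8 genes had 1 probe, printed at 2 spots on every array. The samples were skin biopsies, reaching through the epidermis and the dermis to the connective tissue, cut where horns form on the skull, from 4 polled animals (without horns), 4 scurred animals (with loose rudimentary horns) and 3 horned animals. There were 1 male and 3 females among the polled, 3 males and 1 female among the scurred, and 2 males and 1 female among the horned animals, and horn site and control skin from elsewhere on the skull were compared in polled animal 3 and scurred animal 2. Breed, age and coat colour of the animals are not given in the sources used here.

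Melanocytes are pigment cells of neural crest origin that sit in the basal layer of the epidermis and in hair follicles and pass melanin to keratinocytes. Melanin is made in melanosomes, organelles built on a fibrillar scaffold of the protein PMEL, in which tyrosinase (TYR) catalyses the rate-limiting step of the synthesis. MITF is the transcription factor that drives most of these genes, and MC1R is the receptor through which melanocortin peptides raise, and the agouti protein restrains, the production of dark pigment. In a biopsy of whole skin, fewer melanocytes and less RNA per melanocyte cannot be told apart.

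The array probes are 60 bases long, and the last 30 bases of each, read from the deposited scanner files, are shown because every level below is the brightness of that 1 probe. Capitals mark the letters AATAAA, the common polyadenylation signal, which is usually found near the 3′ end of a transcript.
PMEL: gagactaccattgcctgaAATAAAgactca
MLANA: gtgaacctgtgattcccaatgctccacccg
TYR: tttcctcttgattgtggaatgacttgttcc
TYRP1: ttctcatatgcatttgaatcataaaaacca
DCT: ttgattaagcctcctcgtgttctgatcccc
MC1R: aaacgtgatgcttggtgcaacctcaaaaaa
MITF: aaactgcttcctttcttgatcagcagattt
GPNMB: tcctttttccttcctgaaaAATAAAgtatg
AATAAA or its variant ATTAAA lay in the last 30 bases of 2 of the 8 probes (25%, PMEL and GPNMB), on the strand of the probe as listed, against 12.5% of all 21475 probes. The file lists PMEL under its older name SILV, and the MLANA probe was named through its gene identifier.

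The 8 genes fell into 3 kinds of pattern. PMEL, MLANA, TYR, TYRP1 and MC1R were highest in scurred animal 1, next highest in polled animal 2, and low in the horned animals. MITF and GPNMB were measured well above background in 11 of 11 animals and followed other orders. DCT was well above background in 1 of 11 animals, scurred animal 1. No gene of the 8 passed an adjusted p of 0.05 in any comparison (limma, with the Benjamini-Hochberg adjustment over every probe tested).

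Levels are given as log2 of the background-corrected and normalized signal of an animal, averaged over its arrays, and cannot be compared between probes. An animal counted as well above background for a probe when more than 0.5 of its spots were marked so by the scanner software. On this scale a difference of 1 is a 2-fold difference. Scurred animal 1 stood apart from the other animals over all probes tested, with a mean correlation of 0.92 with the rest against 0.947 to 0.964 for the other animals, so results that rest on it are also given without it. The defining genes of skin were present, with 9 of 9 basal keratinocyte, 7 of 8 suprabasal and 7 of 7 fibroblast genes well above background in at least 3 animals.

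PMEL, the scaffold protein of the melanosome, had levels of 10.11, 10.71, 8.78 and 9.12 in polled animals 1 to 4, of 12.32, 9.76, 8.26 and 8.15 in scurred animals 1 to 4, and of 8.61, 8.06 and 7.75 in horned animals 1 to 3. The 4 polled animals all lay above the 3 horned ones, while scurred animals 3 and 4 lay among the horned. PMEL was well above background in all 11 animals. Its mean level was 9.68 ± 0.89 in polled (SD, n = 4), 9.62 ± 1.94 in scurred (SD, n = 4) and 8.14 ± 0.43 in horned animals (SD, n = 3).

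MLANA, a melanosome protein also known as Melan-A that binds PMEL, had levels of 7.5, 8.91, 6.92 and 7.64 in polled animals 1 to 4, of 9.18, 7.2, 6.76 and 6.46 in scurred animals 1 to 4, and of 6.23, 6.41 and 6.39 in horned animals 1 to 3. In these levels every polled and every scurred animal lay above every horned one, scurred animal 4 only narrowly. It was well above background in 4 polled, 3 scurred and 0 horned animals, and in horned animals 1 to 3 a share of 0.17, 0.25 and 0 of its spots was. The horned levels and that of scurred animal 4 therefore lie at the lower limit of the array.

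TYR had levels of 7.55, 7.87, 6.37 and 6.76 in polled animals 1 to 4, of 9.13, 7.08, 6.22 and 6.27 in scurred animals 1 to 4, and of 5.89, 6.17 and 6.19 in horned animals 1 to 3. The polled and scurred levels all exceeded the horned ones, but polled animal 3 and scurred animals 3 and 4 were not well above background, and neither was any spot of a horned animal. Horned levels were raised, where lower, to the lowest signal that counted as well above background. Mean TYR was then 1.64-fold higher in polled and 1.69-fold higher in scurred than in horned animals. The group means of log2 levels compared were 7.14 in polled and 7.18 in scurred. The horned bound was 6.42, where the measured mean was 6.08. These ratios use each dye's signal by itself and are open to dye bias. Polled animal 3 and scurred animals 3 and 4 entered at their measured levels, each below 6.42. The ratios are therefore not strict lower limits and do not hold for every animal.

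TYRP1, a tyrosinase-related melanosomal protein of eumelanin synthesis, ranged most of the 8 genes, over 5.25 log2 units. Its levels were 7.94, 8.7, 6.68 and 7.41 in polled animals 1 to 4, 11.23, 8.24, 6.51 and 6.5 in scurred animals 1 to 4, and 5.98, 6.27 and 6.33 in horned animals 1 to 3. It was well above background in 4 polled, 2 scurred and 0 horned animals, and in no spot of a horned animal. Built in the same way, mean TYRP1 was at least 2.39-fold higher in polled (mean level 7.68) than in horned animals (bound 6.43, measured mean 6.19). In scurred animals (mean level 8.12) the ratio was 3.24-fold. Scurred animals 3 and 4 were not well above background for TYRP1 or TYR, so the scurred ratios are not strict lower limits. They rest on scurred animal 1, since without it they were 1.58-fold for TYRP1 and 1.08-fold for TYR.

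DCT, dopachrome tautomerase, which acts after tyrosinase in the path to eumelanin, stayed near the lower limit of the array. Its levels were 6.41, 6.42, 6.3 and 6.33 in polled animals 1 to 4, 6.7, 6.55, 6.24 and 6.41 in scurred animals 1 to 4, and 6.39, 6.38 and 6.32 in horned animals 1 to 3. The groups overlapped within a total range of 0.46, and DCT entered no test.

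MC1R had levels of 7.51, 8.18, 6.74 and 7.46 in polled animals 1 to 4, of 9.39, 7.66, 6.82 and 6.59 in scurred animals 1 to 4, and of 6.73, 6.47 and 6.56 in horned animals 1 to 3. The polled animals all lay above the horned ones, although polled animal 3 and horned animal 1 were nearly level. Scurred animal 4 lay among the horned animals and was not well above background there, and of the horned animals 1 was well above background.

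MITF had levels of 8.48, 8.91, 8.99 and 8.85 in polled animals 1 to 4, of 7.7, 8.55, 8.88 and 8.57 in scurred animals 1 to 4, and of 8.14, 8.26 and 8.53 in horned animals 1 to 3. All groups overlapped. Scurred animal 1, which had the highest PMEL, MLANA, TYR, TYRP1, DCT and MC1R of all 11 animals, had the lowest MITF.

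GPNMB, a glycoprotein related to PMEL that macrophages also make in quantity, had levels of 11.59, 12.04, 12.77 and 10.73 in polled animals 1 to 4, of 12.56, 11.99, 12.96 and 11.99 in scurred animals 1 to 4, and of 12.23, 10.27 and 10.3 in horned animals 1 to 3. Horned animal 1 lay among the polled and scurred animals, and the other horned animals were lowest of all. The mean level was 11.79 ± 0.86 in polled (SD, n = 4), 12.37 ± 0.47 in scurred (SD, n = 4) and 10.94 ± 1.12 in horned animals (SD, n = 3).

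**Figure D1:**
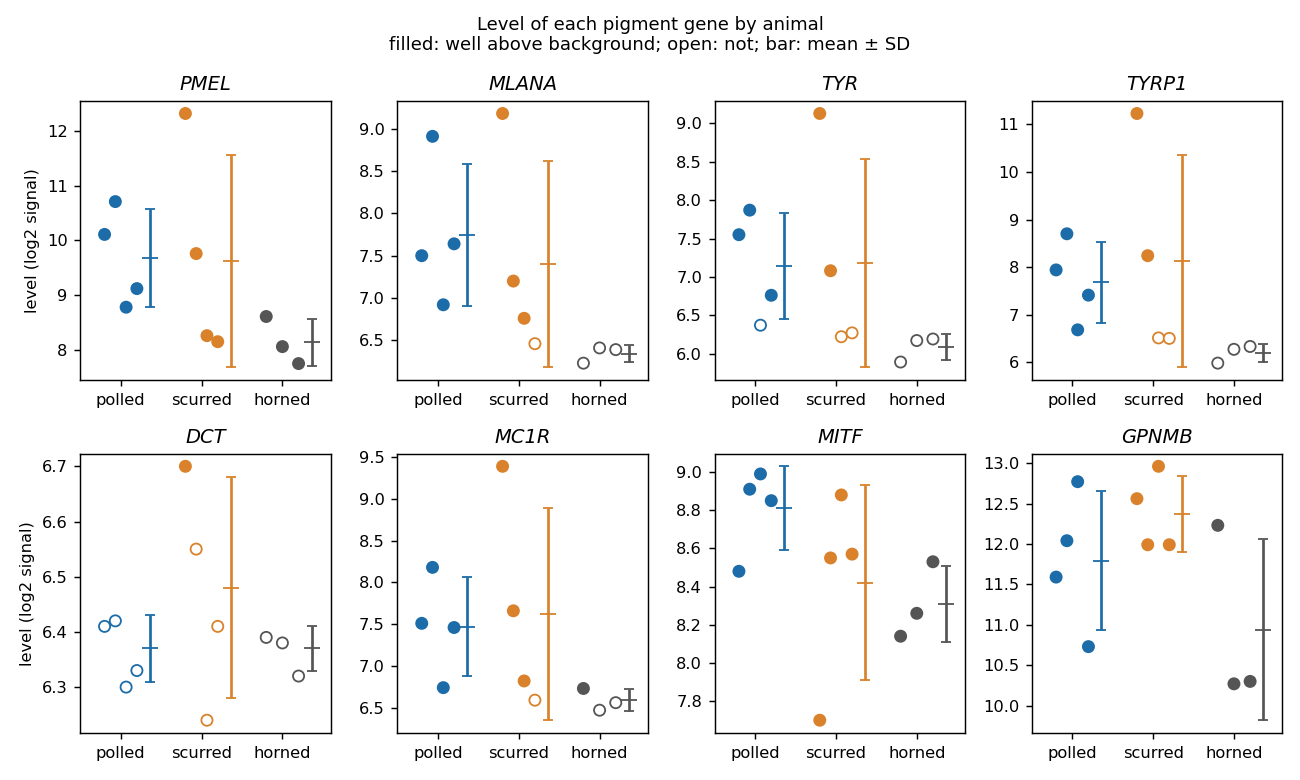
Level of each of the 8 genes (log2 signal, vertical axis, a separate scale for each gene) in 4 polled, 4 scurred and 3 horned animals. Filled points are well above background and open points are not, the bars are mean ± SD, and the TYR and TYRP1 points of all 3 horned animals are open.

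Polled skin was compared with horned skin in a fit that also held terms for scurred, for sex and for chips sharing an animal. On each of chips 1 to 4, a polled, a scurred and a horned animal were hybridised in a closed loop, so every difference was measured within a chip. Polled and horned animals met on 2 arrays with exchanged dyes. The scurred animal met each of them on 1 array, always in the same dye orientation. Horned animal 2 served on chips 2 and 4. All 8 genes had a positive fitted difference, DCT included at its measured value near the lower limit, as had 52.1% of the 15375 probes tested. The median of the 8 was 1.15 against 0.0128 over those probes. Of the 7 genes tested none passed the adjusted threshold, which 1 probe of 15375 did (0.0065%), and none had an unadjusted p under 0.05 (9.35% of probes).

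PMEL differed by 1.6, 2.51, 1.07 and 1.15 between polled animals 1 to 4 and the horned animal on their chip. The fitted difference was 1.73 (SE 0.755, adjusted p 0.54 by limma). MLANA differed by 1.29, 2.61, 0.53 and 0.96 on the same chips, with a fitted difference of 1.6 (SE 0.702, adjusted p 0.543 by limma). Both genes were higher in 4 of 4 polled animals, most so in polled animal 2.

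The single differences of TYR were 1.64, 1.8, 0.17 and 0.45, those of TYRP1 were 1.95, 2.52, 0.4 and 0.93, and those of MC1R were 0.79, 1.8, 0.19 and 0.82 in polled animals 1 to 4. The fits gave 1.19 for TYR (SE 0.707, adjusted p 0.619), 1.64 for TYRP1 (SE 1.1, adjusted p 0.656) and 1.01 for MC1R (SE 0.623, adjusted p 0.627; limma). Polled animals 1 and 2 held the 2 largest differences in PMEL, MLANA, TYR and TYRP1, and polled animals 2 and 4 did in MC1R. A higher signal in all 4 single differences was seen for 14.3% of all probes tested, and levels with every polled animal above every horned one, as in PMEL, MLANA, TYR, TYRP1 and MC1R, for 4.6%. In MLANA, TYR and TYRP1 no horned animal was well above background, and neither was polled animal 3 in TYR. The fitted differences of these 3 genes are therefore set against the lower limit of the array, and the order there is one of levels near it. They passed the detection filter, at least 3 animals well above background, through polled and scurred animals only. The filter thus favoured higher polled levels, and the shares of 14.3% and 4.6% cannot weigh the order in these 3 genes. In MC1R only 1 of 3 horned animals was well above background, so its differences are in part set against that limit.

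MITF differed by 0.23, 0.57, 0.37 and 0.49, positive on 4 of 4 chips, and the fit gave 0.4 (SE 0.177, adjusted p 0.543, limma). These values are after a fitted dye effect of −0.19 for MITF, the largest of the 8 genes. On chip 1 the ratio was −0.06 with polled skin in Cy5 (red) and 0.62 with polled skin in Cy3 (green). GPNMB differed by −0.66, 1.56, 2.46 and 0.63 and was thus higher in 3 of 4 polled animals, with a fitted difference of 1.11 (SE 0.519, adjusted p 0.56, limma). The animals with large differences were not the same in GPNMB as in PMEL, since polled animal 3 had the largest difference in GPNMB and the smallest in PMEL. The median over the 8 genes was 0.364 without polled animal 2, 0.276 without chip 2 and 0.73 without horned animal 1. Under the scanner software's own log ratios it was 2.06, with 3.84 for MLANA, 3.67 for TYR and 4.18 for TYRP1.

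**Figure D2:**
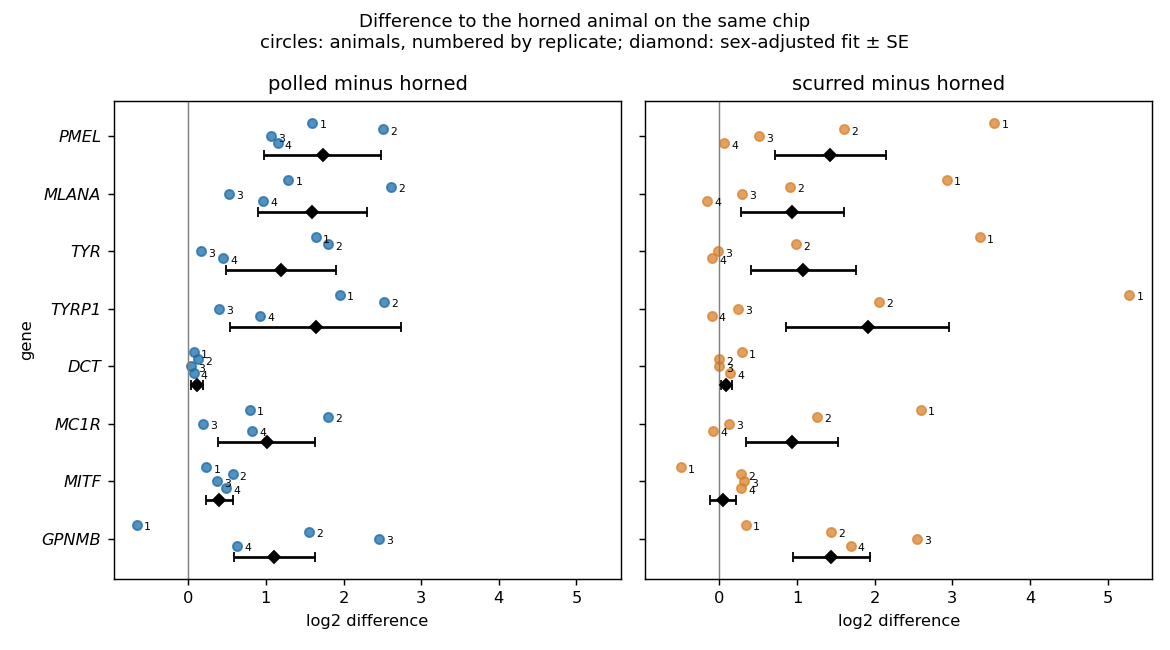
Log2 difference of each polled animal (left) and each scurred animal (right) to the horned animal on its chip, for the 8 genes. Circles are animals numbered by replicate and black diamonds the sex-adjusted fits ± SE, with scurred animal 1 at 5.28 in TYRP1 and scurred animals 3 and 4 between −0.16 and 0.51 in the 6 genes other than GPNMB and MITF.

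Scurred skin was compared with the same 3 horned animals, so the comparisons of polled and of scurred skin share their horned samples. The median of the 8 fitted differences was 1.01 against 0.00659 over all probes tested. None of the 7 genes tested passed the adjusted threshold, nor did any of the 15375 probes (0%), and 1 of the 7, GPNMB, had an unadjusted p under 0.05 (3.75% of probes).

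In scurred animals 1 to 4, TYRP1 differed from horned by 5.28, 2.05, 0.24 and −0.1, with a fitted difference of 1.91 (SE 1.05, adjusted p 1, limma). PMEL differed by 3.54, 1.6, 0.51 and 0.06, with a fit of 1.43 (SE 0.719, adjusted p 1, limma). Scurred animals 1 and 2 were above the horned animals of their chips in both genes, and animals 3 and 4 close to them. MLANA, TYR and MC1R showed the same split, with single differences of 2.93, 0.91, 0.29 and −0.16 for MLANA, of 3.35, 0.99, −0.02 and −0.09 for TYR, and of 2.59, 1.26, 0.12 and −0.08 for MC1R. Their fitted differences were 0.94 (SE 0.668), 1.08 (SE 0.673) and 0.93 (SE 0.593), each with an adjusted p of 1 (limma). Without scurred animal 1 the fits were 0.748 for TYRP1 (SE 0.731), 0.671 for PMEL (SE 0.536), 0.241 for MLANA (SE 0.518), 0.35 for TYR (SE 0.496) and 0.317 for MC1R (SE 0.464). As in the polled comparison, the differences of MLANA, TYR and TYRP1 are set against horned levels at the lower limit of the array, and those of MC1R in part. Levels with every scurred animal above every horned one, as in MLANA, TYR and TYRP1, occurred in 1.88% of all probes tested, and in these 3 genes several of the levels compared were not well above background. Within its chip, scurred animal 4 had a negative difference in these 3 genes, and scurred animal 3 had one in TYR, so the order holds for levels only. As in the polled comparison, these 3 genes passed the detection filter through polled and scurred animals only. The filter therefore favoured this order, and the share of 1.88% cannot weigh it.

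GPNMB was higher in 4 of 4 scurred animals, by 0.34, 1.44, 2.55 and 1.69, a difference that fitted to 1.44 (SE 0.494, unadjusted p 0.0219, adjusted p 1, limma). A higher signal in all 4 single differences was seen for 8.53% of probes. MITF differed by −0.5, 0.28, 0.31 and 0.28, with a fit of 0.05 (SE 0.168, adjusted p 1, limma). Without scurred animal 1 the median over the 8 genes was 0.334, without chip 1 it was 0.282 and without horned animal 1 it was 0.415. Under the scanner software's own log ratios it was 1.72, with 2.68 for MLANA, 3.23 for TYR, 3.75 for TYRP1 and 1.84 for MC1R. GPNMB was 1.6 (SE 0.571) without scurred animal 1, 0.722 without horned animal 3 and 2.09 without horned animal 1.

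Scurred and polled animals overlapped in level in all 8 genes. The median fitted difference of scurred minus polled was −0.1 against −0.00851 over all probes, and none of the 7 tested genes passed the adjusted threshold (0% of probes) or had an unadjusted p under 0.05 (5.96% of probes). PMEL was 1.95 higher in scurred than in polled skin on chip 1, and lay at −0.91, −0.56 and −1.09 on chips 2 to 4. MLANA, TYR, TYRP1 and MC1R had the same signs as PMEL on each of the 4 chips. The fitted differences of these 5 genes lay between −0.67 for MLANA (SE 0.681, adjusted p 0.921, limma) and 0.27 for TYRP1 (SE 1.07, adjusted p 0.979, limma). MITF was lower in the scurred animal on 4 of 4 chips, by −0.72, −0.3, −0.06 and −0.22 (fit −0.35, SE 0.171, adjusted p 0.847, limma), which 9.46% of probes also were. The fitted dye effect of MITF was −0.19, and the scurred animal was always in Cy5 on the arrays it shared with the polled animal.

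Sex was a term of the same fit, since each of chips 1 to 4 set a polled against a scurred animal of the other sex. Male minus female, the fitted differences of the 7 tested genes lay between 0.06 for MITF (SE 0.153) and 0.63 for MLANA (SE 0.609). All adjusted p were 1 (limma), where 0.0195% of probes passed, and 0 of the 7 had an unadjusted p under 0.05 (2.07% of probes). Horn type and sex overlap in these 11 animals, and without the sex term the polled minus horned difference was 1.63 for PMEL (SE 0.679) and 1.37 for MLANA (SE 0.667).

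Horn-site skin was compared with control skin of the same animal in polled animal 3 and scurred animal 2, each on 2 arrays with exchanged dyes. PMEL had a level of 8.98 at the horn site against 10.11 at the control site of the polled animal, and 9.86 at the horn site against 10.69 at the control site of the scurred animal. It was lower at the horn site in both, with a mean difference of −0.98 (SE 0.147, unadjusted p 0.00484, adjusted p 0.969, limma). TYR had 6.52 at the horn site, where it was not well above background, against 7.21 at the control site of the polled animal, and 7.31 at the horn site against 8.13 at the control site of the scurred animal. Its mean difference was −0.75 (SE 0.127, unadjusted p 0.00703, adjusted p 0.969, limma).

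MLANA had 7.13 at the horn site against 7.82 at the control site of the polled animal and 7.31 at the horn site against 8.66 at the control site of the scurred animal, a mean difference of −1.02 (SE 0.219, adjusted p 0.969, limma). For TYRP1 the horn site had 7.1 against 8.66 at the control site of the polled animal and 8.42 against 8.69 at the control site of the scurred animal, so that most of its difference of −0.91 (SE 0.375, adjusted p 0.969, limma) came from the polled animal. MC1R had 6.81 at the horn site, not well above background, against 7.71 at the control site of the polled animal, and 7.79 at the horn site against 8.13 at the control site of the scurred animal, a mean difference of −0.62 (SE 0.195, adjusted p 0.969, limma). These 5 genes had lower levels at the horn site than at the control site in 2 of 2 animals, as 26.4% of all probes tested did.

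Of the 7 genes tested, 4 had an unadjusted p under 0.05 (4.68% of the 14653 probes). All 4, PMEL, MLANA, TYR and MC1R, were lower at the horn site (1.98% of probes), and none passed after adjustment (0% of probes). The median difference of the 8 genes was −0.69 against −0.00817 over all probes, −0.688 in the polled and −0.371 in the scurred animal, and −1.24 under the scanner software's log ratios. GPNMB had 12.78 at the horn site against 11.75 at the control site of the polled animal and 11.56 at both sites of the scurred animal, a mean difference of 0.51 (SE 0.307, adjusted p 0.974, limma). The equal GPNMB levels of the scurred animal average arrays that disagreed, at −0.51 with the horn site in Cy5 and 0.51 with it in Cy3. MITF had 8.92 at the horn site against 8.36 at the control site of the polled animal and 8.55 at the horn site against 8.95 at the control site of the scurred animal, opposite signs in the 2 animals.

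**Figure D3:**
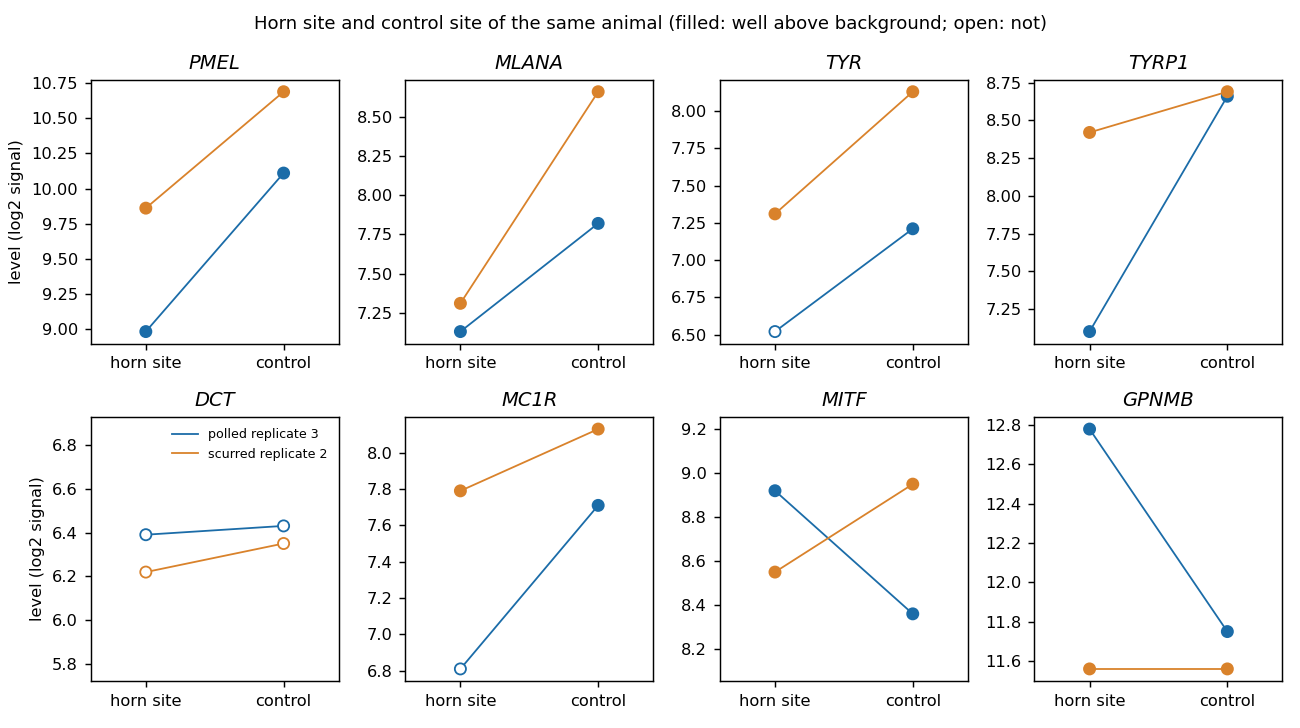
Levels of the 8 genes (log2 signal, vertical axis, a separate scale for each gene) at the horn site and the control site of polled animal 3 and scurred animal 2, joined by a line for each animal. PMEL, MLANA, TYR, TYRP1 and MC1R lie lower at the horn site in both animals, and open points are not well above background.

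Levels of epidermal genes also differed between the animals. The 7 genes of a suprabasal and cornified epidermis list that were well above background had median differences to the horned animal of 3.73, 2.68, 1.1 and 2.34 in polled animals 1 to 4. In scurred animals 1 to 4 these were 5.33, 3.99, 0.39 and −0.37. The median differences of PMEL, MLANA, TYR and TYRP1 were 1.62, 2.52, 0.47 and 0.94 in polled animals 1 to 4 and 3.44, 1.3, 0.26 and −0.1 in scurred animals 1 to 4. In both sets of genes scurred animals 1 and 2 were high and scurred animals 3 and 4 low, while the highest polled animal was number 1 in the epidermal list and number 2 in the pigment genes.

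The summed linear signal of the epidermal list ran over 8576 to 163343 in polled, 3509 to 399030 in scurred and 3488 to 18388 in horned animals. A list of 9 basal keratinocyte genes had median differences of 0.67, 1.94, 1.46 and 1.28 in polled and of 1.31, 1.55, 0.49 and −0.32 in scurred animals. The order differed from that of the pigment genes among the polled animals, where polled animal 1 was lowest in this list. Its summed signal ran over 124179 to 429769 in polled, 51484 to 702585 in scurred and 49994 to 79572 in horned animals. The share of the biopsy that was epidermis was not measured, and its part in the pigment gene differences was not tested. At the horn site against the control site the suprabasal list lay at −1.27 in the polled and at 0.66 in the scurred animal. The basal keratinocyte list lay at 0.05 in the polled and at −0.32 in the scurred animal.

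A list of 12 genes of macrophages, which also make GPNMB, had median differences of −1.62, −0.64, 0.76 and −0.69 in polled animals 1 to 4 and of −0.75, 0.03, 1.32 and 0.6 in scurred animals 1 to 4. All 12 were well above background, with summed signals of 57288 to 119449 in polled, 95490 to 149693 in scurred and 72819 to 173568 in horned animals. GPNMB was highest, at 12.77 and 12.96, in polled animal 3 and scurred animal 3, which also had the highest macrophage medians of their groups. The signs also matched in polled animal 1, where GPNMB was −0.66, and in scurred animals 2 and 4, where it was 1.44 and 1.69. In polled animals 2 and 4 and scurred animal 1 the signs were opposite. Against horned, GPNMB was 1.56 and 0.63 higher in polled animals 2 and 4 and 0.34 higher in scurred animal 1, where the macrophage medians were negative. The part of macrophages in the GPNMB differences was not tested. Markers of Schwann cells, which share neural crest origin with melanocytes, had median differences between −1.03 and 0.42 (8 genes, all well above background, summed signals of 31803 to 48451 in polled, 22673 to 45648 in scurred and 39990 to 51012 in horned animals).

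**Figure D4:**
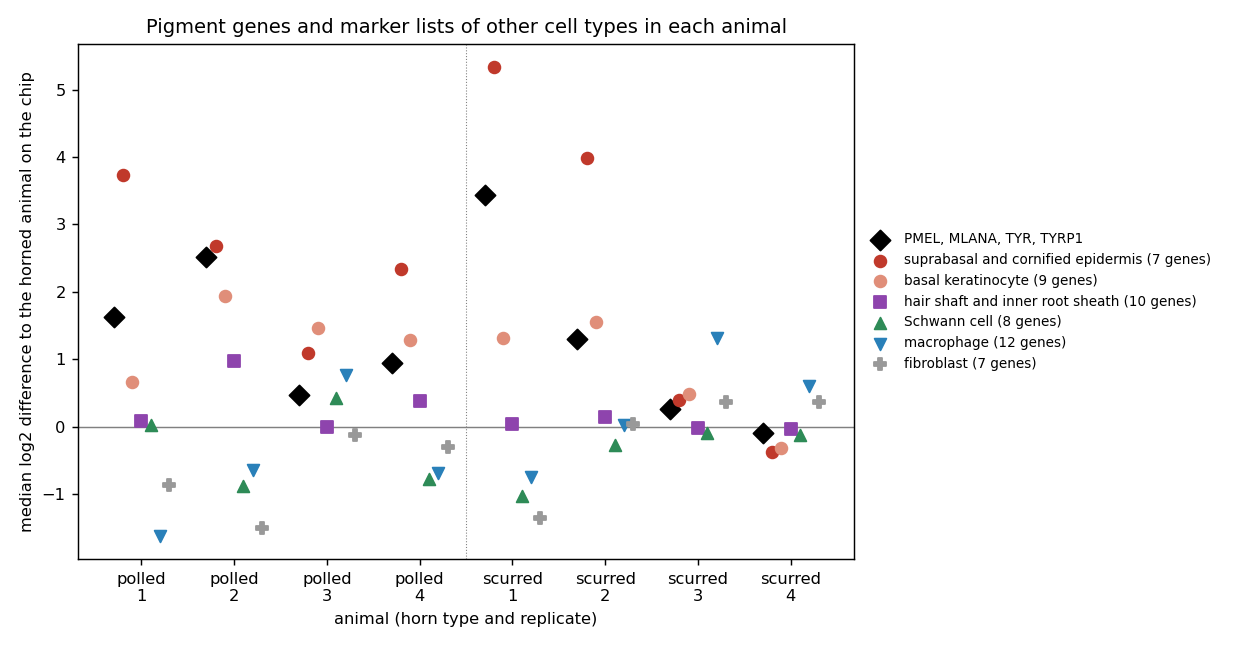
Median log2 difference to the horned animal on the chip, for each polled and scurred animal, of PMEL, MLANA, TYR and TYRP1 (black diamonds) and of marker lists of other cell types. The suprabasal and cornified list is highest in scurred animal 1, at 5.33, as are the pigment genes, at 3.44, and both lie near 0 in scurred animals 3 and 4.

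A profile was formed as the mean standardised level of PMEL, MLANA, TYR and TYRP1 over the 11 animals, and each of the 8 genes was set against it, leaving the gene itself out. Pearson's r was 0.987 for MC1R, 0.986 for TYR, 0.975 for TYRP1, 0.973 for PMEL and 0.939 for MLANA. It was 0.766 for DCT, 0.291 for GPNMB and −0.346 for MITF. Without scurred animal 1 and polled animal 2, the animals farthest from the median of the profile, r was 0.948 for MC1R and TYRP1 and 0.945 for TYR. It was 0.896 for PMEL, 0.869 for MLANA, 0.447 for DCT, 0.0554 for GPNMB and 0.254 for MITF. These values describe 11 animals that fall into horn types, and they share arrays and dyes.

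Outside the 8 genes, 145 of 11365 named genes had an r of at least 0.9 with the profile. The 10 most alike were LYPD3 (0.985), PKP3 (0.984), SRPK1 (0.978), GRHL3 (0.974), ATP6V0A4 (0.973), TMEM184A (0.972), SYTL1 (0.971), SLC4A9 (0.969), ABCC13 (0.968) and KCNK7 (0.967). PKP3 encodes plakophilin 3, a protein of desmosomes, and GRHL3 a transcription factor of epidermal differentiation. Without the 2 farthest animals, r was 0.932 for LYPD3, 0.932 for PKP3 and 0.959 for GRHL3. None of the 10 was chosen for its role, and the fitted polled minus horned difference was 1.87 for PKP3, 1.7 for KCNK7 and 0.58 for LYPD3.

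A wider list of the pigment pathway held 38 further genes, of which 35 had a named probe and 31 were well above background in at least 3 animals. After adjustment none of the 31 passed in any comparison of horn types. In polled against horned skin 6 had an unadjusted p under 0.05, all higher in polled skin (4.81% of all probes), and the median of the 31 was 0.18. In scurred against horned skin 0 did, with a median of 0.08. In scurred against polled skin 1 did, PAX3, and was lower in scurred skin (3.04% of probes), with a median of −0.1.

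Among signals, ASIP, the agouti protein that antagonises MC1R, differed from horned by 0.65, 0.5, 0.53 and 0.27 in polled animals 1 to 4 (fit 0.56, SE 0.222, adjusted p 0.523, limma). In scurred animals 1 to 4 it differed by 1.18, 0.08, 0.21 and 0.21. The ASIP levels overlapped between the groups, with 9.88 in polled animal 1 and 10.1 in scurred animal 2 against 10.12 in horned animal 2. Horned animal 1, on the chip with the largest differences, had the lowest level, 9.24. The probe was well above background in all 11 animals.

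Among lineage factors, PAX3, which acts upstream of MITF in melanocyte precursors, differed by 0.41, 1.74, 0.33 and 0.71 in polled animals 1 to 4 (fit 0.94, SE 0.256, unadjusted p 0.00777, adjusted p 0.461, limma). In scurred animals 1 to 4 it differed by 0.43, 0.36, 0.12 and 0.03, and scurred minus polled fitted to −0.81 (SE 0.249, unadjusted p 0.0131, adjusted p 0.801, limma). Unlike TYRP1, PAX3 was highest in polled animal 2, at a level of 8.24, and scurred animal 1 had 6.96. ERBB3, a neuregulin receptor of melanocyte precursors that Schwann cells and epithelia also carry, differed by 0.93, 1.49, 0.78 and 1.12 in polled animals (fit 1.08, SE 0.408, adjusted p 0.52, limma). TFAP2A, an AP-2 factor of neural crest and epidermis, differed by 0.13 to 1.18 in polled animals (fit 0.53, SE 0.219, adjusted p 0.528, limma).

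KIT, the receptor through which stem cell factor keeps melanocytes alive, was well above background in all 11 animals, with levels of 9.09 to 9.97 in polled, 8.99 to 9.48 in scurred and 8.78 to 9.68 in horned animals. Its groups overlapped, and it differed by 0.42 in polled against horned skin (SE 0.228, adjusted p 0.588, limma). The endothelin receptor EDNRB was well above background in 0 of 11 animals, and SOX10, a neural crest factor of melanocytes, was not analysed here.

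Among melanosome proteins, OCA2, a transport protein of the melanosome membrane, had levels of 7.31, 7.4, 7.23 and 7.43 in polled animals 1 to 4, of 7.9, 7.2, 6.82 and 6.76 in scurred animals 1 to 4, and of 6.45, 6.88 and 6.57 in horned animals 1 to 3. All polled animals lay above all horned ones, and the fitted difference was 0.68 (SE 0.309, adjusted p 0.55, limma). GPR143, a melanosome receptor mutated in ocular albinism and chosen for mention after its values were seen, differed by 0.73 to 1.7 in polled animals (fit 1.24, SE 0.576, adjusted p 0.557, limma). In scurred animals 1 to 4 it differed by 2.76, 1.47, 0.13 and 0.62. SLC24A5, an ion exchanger of pigment cells, which was named in the same way and was well above background in all 11 animals, differed by 0.21, −0.84, −0.19 and −0.54 in polled animals 1 to 4 (fit −0.44, SE 0.321, adjusted p 0.687, limma). Its fit in scurred against horned skin was −0.26 (SE 0.305, adjusted p 1, limma), and that of TPCN2, an ion channel, was −0.05 in polled against horned skin (SE 0.188). The transporter SLC45A2 was well above background in 0 of 11 animals.

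Among genes of melanosome formation and transfer, MLPH, melanophilin, which links melanosomes to myosin Va, differed by −0.4, 2.22, 2.11 and 1.31 in polled animals 1 to 4 (fit 1.45, SE 0.554, adjusted p 0.521, limma). It was thus higher in 3 of 4, and polled animal 1, which had high TYR and TYRP1, was the exception. RAB38, a small GTPase that sorts tyrosinase and TYRP1 to melanosomes, differed by 0.23 to 1.01 in polled animals (fit 0.59, SE 0.241, adjusted p 0.527, limma) and was well above background in 5 of 11 animals. MYO5A, the myosin Va motor, differed by 0.02 (SE 0.111).

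**Figure D5:**
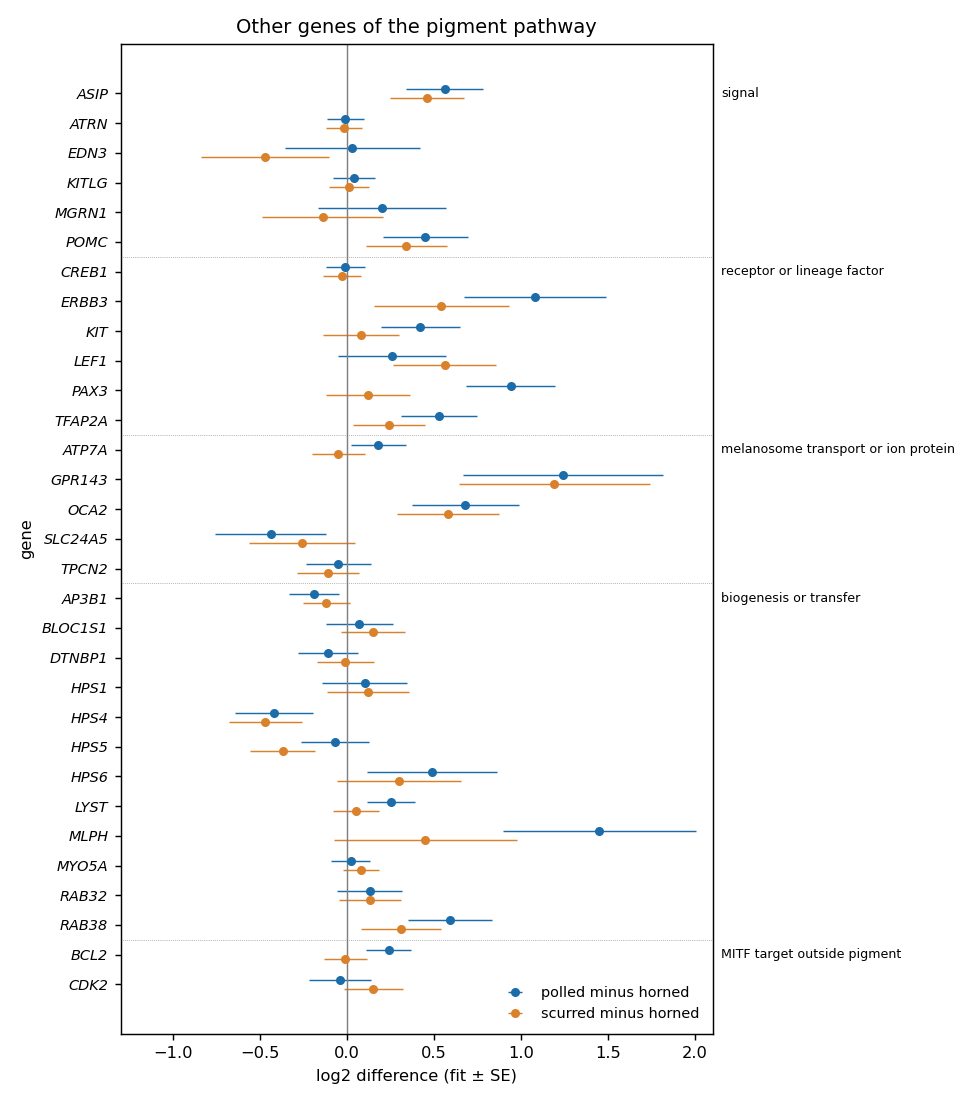
Fitted log2 differences ± SE of polled (blue) and scurred (orange) minus horned skin for the 31 further pathway genes tested, grouped by role. MLPH, GPR143, ERBB3 and PAX3 have the 4 largest polled minus horned values, between 0.94 and 1.45.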

How the data were processed

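The deposited scanner files give mean and background signal of each spot in both dyes as a linear intensity. The deposited log ratio is log10 of the red over the green processed signal, per the file headers, made by Agilent Feature Extraction 9.5.1 per the submitters' processing notes. The deposited series table holds these log10 ratios (14 columns with slope 1 and 6 with slope −1 against the scanner files, column medians −0.019 to 0.00971), with blanks where the scanner files list a ratio of 0. The alternative took the ratios from the scanner files, with zeros left out. The 20 arrays had 62.24% to 73.75% of spots well above background and at most 2 saturated spots. The number of animals limits the precision.

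Intensities were corrected by normexp (offset 50) and normalized by loess within arrays (limma 3.58.1, R 4.3.3, version 1.17.8 of data.table). Flagged spots were left out and spots of a probe averaged. A linear model over the 16 arrays of chips 1 to 4, with a dye coefficient, gave 1 value per animal. These were tested with limma, with terms for polled, scurred and male and a block for chips sharing animals (two-sided, Benjamini and Hochberg over 15375 probes well above background in at least 3 of 11 animals). Chip 5 was tested against 0 over 2 animals (14653 probes, at least 2 of 4 RNAs). P-values set a difference against the spread between these animals, which limma moderates towards the spread over all probes tested. On chip 5, with 2 animals, they rest in large part on that shared spread. The scripts were tested on simulated data.

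Of 21475 probes, 16362 were named through gene identifiers, accessions, descriptions or symbols. Genes named in the text are the 8 pigment genes, pathway genes with an unadjusted p under 0.05 in a comparison of horn types or listed by name (GPR143, SLC24A5 and TPCN2 were added after their values were seen), and the 10 genes most like the profile. The genes and lists were chosen with earlier results of these data known, and how many spots make an animal well above background was settled after seeing how many probes each choice kept.

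The pairing of animals comes from the hybridisation of each chip's animals to each other. Deviations of the polled and scurred animal of a chip from their group means correlated at 0.237, 0.289, 0.423 and −0.0845 across probes on chips 1 to 4, against means of −0.132, −0.131, −0.0714 and 0.058 between chips.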

Additional observations from a re-analysis of the deposited data

Results flagged for a closer look

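In scurred animals, the MITF difference to the horned animal had 1 animal far from the others. Scurred animal 1 lay at −0.5 and the other three between 0.28 and 0.31, so the gap to the nearest animal was 0.952 of the whole range. A gap is singled out here above a limit that chance passes in about 1 in 20 groups. MITF also differed in opposite directions between the horn site and the control site of the 2 animals of chip 5, by 0.56 in polled animal 3 and −0.4 in scurred animal 2, on both arrays of each animal. The scurred minus polled difference of −0.956 was not tested.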

How the results depend on the processing

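No adjusted p of the 7 tested genes fell below 0.05 under any alternative run (lowest 0.274, limma). With polled against horned, 1 probe passed in the whole table, and 0 passed under the scanner software's log ratios, median centring and the fit with no replicate block, which also used separate-channel levels in place of ratios. Tested genes with an unadjusted p under 0.05 numbered 0, against 3 under the scanner log ratios, 2 under median centring or with no sex term, and 1 in that fit with no replicate block, with no dye term, no filter, detection in all 11 animals (3 genes tested) or any spot taken as detection. The median was 2.06 under the scanner log ratios. Leaving out a chip or animal gave 0 to 1 probes, 0 to 3 genes and a median of 0.276 to 1.44, with TYR at −0.00411 to 1.57.

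With scurred against horned, 3 genes had an unadjusted p under 0.05 under the scanner log ratios (median 1.72) and 1 probe passed under median centring. MITF turned to −0.00857 and −0.025 under these. Leaving out a chip or animal gave 0 to 1 probes, 0 to 5 genes and MITF at −0.0628 to 0.268.

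With scurred against polled, no sex term gave 1 probe, a median of 0.0325, TYR at 0.0425 and MC1R at 0.0706. The scanner log ratios gave TYRP1 at −0.435. Leaving out a chip or animal gave 0 to 2 probes, a median of −0.617 to 0.898, and PMEL at −0.915 to 1.17, MLANA at −1.22 to 0.958, TYR at −0.68 to 1.44, TYRP1 at −0.659 to 2.27 and MC1R at −0.585 to 0.837, so their direction was not settled.

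For horn site against control site the scanner log ratios gave a median of −1.24, TYR at −2.22, MLANA at −1.84, TYRP1 at −1.6 and MC1R at −1.38. Genes with an unadjusted p under 0.05 numbered 4, and 3 under median centring or with no filter. A single animal gave −0.688 to −0.371, with MITF at −0.398 to 0.558, and median centring gave MITF at −0.0641. The cause of these changes was not tested. The alternatives on detection were chosen after seeing the data, and the mean of all probes of a gene was not run since each gene had 1 probe. The horned levels of MLANA, TYR, TYRP1 and DCT lie at the lower limit of the array, and those of MC1R lie near it, with 1 of 3 horned animals well above background. The fits left 5 residual degrees of freedom for horn types and 1 for chip 5.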

Other observations

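Skeletal muscle and red cell genes varied widely between the biopsies. Median differences to the horned animal were 5.2, −0.4, 1.53 and 2.2 in polled and 3.01, 0.55, 3.33 and −2.66 in scurred animals 1 to 4 for 6 skeletal muscle genes. For 3 red cell genes well above background they were 4.61, 1.65, 2.99 and 1.38 in polled and 2.36, 3.2, 1 and 4.09 in scurred animals. Fibroblast genes (7) lay at −0.87, −1.5, −0.12 and −0.3 in polled and at −1.35, 0.04, 0.37 and 0.37 in scurred animals. Hair shaft and inner root sheath genes (10 well above background) lay at 0.08, 0.97, 0 and 0.38 in polled and at 0.04, 0.15, −0.02 and −0.04 in scurred animals. Polled animal 2, the highest, also had the highest median of PMEL, MLANA, TYR and TYRP1 among the polled, 2.52. The median of the hair list covers genes that differed widely. In polled animals 2 and 4, KRT27 had levels of 12.99 and 10.26 against 7.09 in horned animal 2 of their chips. TCHH had 12.04 and 9.65 against 7.45, while KRT25, at 10.72 and 11.76 against 11.9, and MSX2 were lower. The part of hair follicles in the pigment gene differences was not tested. The 4 endothelial genes lay at −0.93 to 0.39.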
